A study of Mus musculus with 6 samples.

Results

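The genes described here encode the proteins of the cytoplasmic ribosome in mouse retinal ganglion cells (RGCs), which send the eye's output to the brain through the optic nerve. They were chosen by name: every entry of the expression table called Rpl, Rplp, Rps or Rpsa with the usual numbering, 80 of the 10361 gene names listed. By their names alone, 48 of these 80 genes were assigned to the large subunit and 32 to the small subunit, paralogs such as Rpl7l1 included. Each has 1 assembled locus, none was at 0 in any library, and all 80 passed the filter on low values (a mean of at least 1 FPKM). The names leave out ribosomal genes with other names, such as Fau and Rack1, and the paralog Rpl36al, which are given further on.

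All libraries come from wild-type mice of the strain C57/6NCrl, and poly-A RNA was sequenced in 6 of them, in 3 groups of 2. The adult control RGCs, with the treatment label mCherry, had received an AAV2 vector carrying a scrambled shRNA mimic. The adult miR-1247 RGCs had received AAV2 that expresses a miR-1247-5p mimic, which imitates this microRNA. Both adult groups were purified on Thy1 antibody from 10 retinas per condition and then sorted for mCherry, which gave about 5000 cells. The untreated RGCs of embryonic day 18 (E18) were purified on Thy1 antibody without sorting, about 50000 cells. The labels do not say that the libraries of a group came from separate animals, so p-values measure only how these libraries vary, and that variation may be technical. Age, vector, sorting and number of cells cannot be told apart between E18 and adult libraries.

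A ribosome is built from ribosomal RNA and about equal numbers of each of its proteins. The large subunit holds the site where peptide bonds form and the tunnel through which the new chain leaves, and the small subunit reads the mRNA. In growing neurons ribosomes are made in the nucleolus and are also found in axons and growth cones. Most mRNAs of ribosomal proteins begin with a cytosine followed by a run of pyrimidines, the 5′ terminal oligopyrimidine (TOP) motif, through which mTORC1 signalling controls their translation.

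The starts of 8 genes are printed because these genes are among those that changed most or against the rest, or form paralog pairs. Each window holds 30 bases before and 20 bases from the annotated start on the strand of the gene, read from the mm39 genome (GRCm39) at the start of a GENCODE transcript, and capitals mark the pyrimidines that open the transcript. Rps2 lies at chr17:24939052-24939101 on the plus strand, Rpl30 at chr15:34443353-34443402 on the minus strand, Rpl29 at chr9:106306700-106306749 on the plus strand and Rps15a at chr7:117714460-117714509 on the minus strand. The paralog windows are chr4:152410120-152410169 on the plus strand for Rpl22, chr3:28859555-28859604 on the plus strand for Rpl22l1, chr3:90120958-90121007 on the minus strand for Rps27 and chr9:66853310-66853359 on the plus strand for Rps27l.
Rps2: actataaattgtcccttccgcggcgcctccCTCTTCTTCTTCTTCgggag
Rpl30: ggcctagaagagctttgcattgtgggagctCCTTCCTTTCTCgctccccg
Rpl29: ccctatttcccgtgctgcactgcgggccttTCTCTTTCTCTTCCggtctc
Rps15a: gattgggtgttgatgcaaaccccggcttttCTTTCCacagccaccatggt
Rpl22: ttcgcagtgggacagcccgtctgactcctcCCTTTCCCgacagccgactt
Rpl22l1: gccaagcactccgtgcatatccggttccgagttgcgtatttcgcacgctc
Rps27: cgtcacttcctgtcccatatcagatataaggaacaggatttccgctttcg
Rps27l: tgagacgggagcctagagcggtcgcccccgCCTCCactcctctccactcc
Rps2, the only member called lower in E18 than in the adult control, opens with 15 pyrimidines, and Rpl30, among the members with the largest increase, opens with 12. Rpl34, which increased most, opens with 2 pyrimidines, and Rpl36, Rps12 and Rplp0, also among the largest increases, open with 0. The annotated start need not be the one used in these cells. For Rps15a, on the minus strand, the assembled locus reaches to base 117715411, upstream of the annotated start at 117714479. An opening cytosine with at least 4 further pyrimidines was present at the annotated start of 8 of the 80 genes (10.0%), against 3.69% of 20103 gene starts with a CCDS transcript. Within 20 bases on either side of the start, CTTTC on the sense strand was present in 13.75% of the members and 4.77% of all starts, and CTTCC in 21.25% and 9.25%. The ETS factor core CCGGAAG, searched on both strands from 250 bases before to 50 after the start, was present in 31.25% of the members and 10.54% of all starts. The GC box GGGCGG, searched in the same way, was present in 55.0% and 42.9%. A match of letters is not a bound site.

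Levels are FPKM (fragments corrected for transcript length and for all mapped fragments), and depth is unknown because the table holds no read counts. Listed FPKM summed to between 339224 and 392238 per library. Of the RGC markers fixed for this work, 14 of 15 had an entry. Their summed level was 3339 to 3395 FPKM in control, 2057 to 2087 in miR-1247 and 5400 to 5417 in E18 libraries, and no marker was at 0. The RGC markers did not all move with this sum. Thy1, Slc17a6, Nefh and Opn4 were lower in both E18 libraries than in both control libraries, and the other 10 were higher. Markers of other cells also differed with the groups, and their part in the results below was not tested. Of the Müller glia and astrocyte markers 5 of 9 had an entry, with sums of 1063 to 1409, 1713 to 1825 and 167 FPKM in the same order. Of these 5, Vim was higher in both E18 libraries than in both control libraries, and the other 4 were lower. Glul was uneven in the control libraries, with 463.5 and 121.8 FPKM. Of the amacrine markers 3 of 8 had an entry, with sums of 130 to 152, 173 to 205 and 1.13 to 3.41 FPKM, and Npy was at 0 in an E18 library. For rods and cones (3 of 9) the sums were 45.7 to 46.8, 24.3 to 26.9 and 5.57 to 6.41 FPKM, with Sag at 0 in 3 libraries. For bipolar cells (3 of 7) they were 25.2 to 30.04, 40.4 to 40.9 and 11.3 to 12.7 FPKM, with Gng13 at 0 in 4 libraries and Car8 in 1. The progenitor markers (2 of 8) summed to 18.6 to 19.5, 19.6 to 22.4 and 49.5 to 52.9 FPKM, and Dapl1 was at 0 in all 4 adult libraries. Mbp, the oligodendrocyte marker with an entry (1 of 4), was at 24.3 to 24.9, 35.6 to 41.5 and 9.15 to 11.5 FPKM. Of the 7 microglial and 6 vascular markers 0 had an entry under these names, so those cells could not be assessed.

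The first comparison sets E18 RGCs against the adult control. Nearly all ribosomal protein mRNAs were higher in E18: 76 of the 80 passed the test upwards and 1, Rps2, downwards, while over all 9987 genes tested 40.2% were called higher and 29.8% lower. The 48 large subunit genes gave 46 higher and 0 lower calls with a median log2 fold change of 1.83, and the 32 small subunit genes 30 higher and 1 lower with a median of 1.995. The median over all genes tested was 0.16. Among the members, 35 were called higher by at least 4-fold on the log2(FPKM + 1) scale, against 5.38% of all genes tested. Calls come from limma on log2(FPKM + 1) with Benjamini-Hochberg adjustment over all genes tested, at an adjusted p under 0.05. With libraries scaled by the median ratio over genes, the median of all genes went from 0.16 to 0.02 and 73 members were called higher. In bulk samples, fewer cells of a type and less RNA per cell cannot be told apart.

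**Figure D1:**
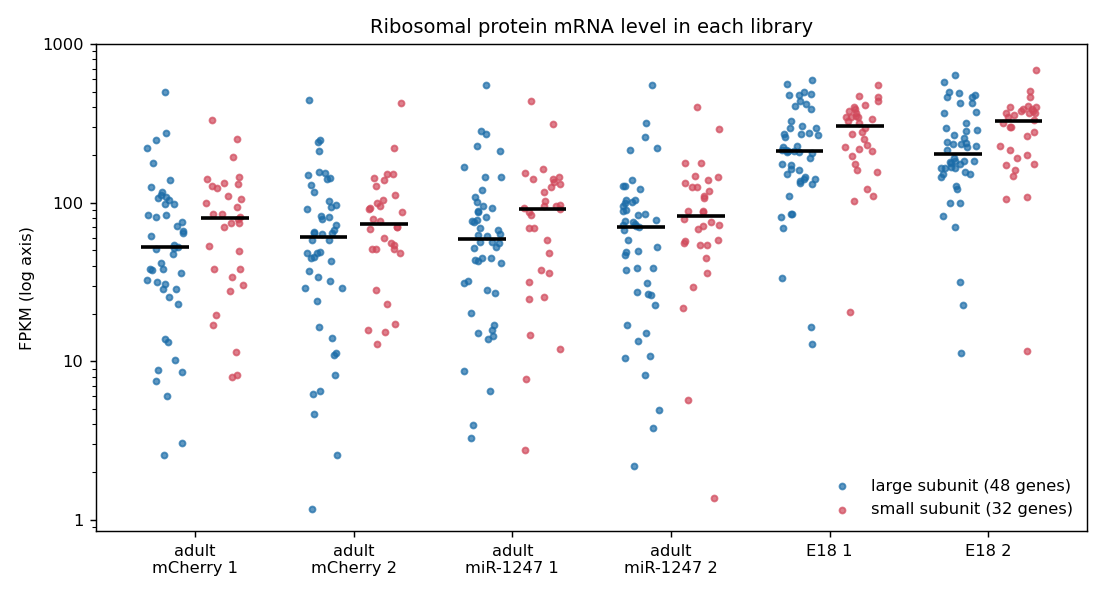
FPKM of each of the 80 genes (points, log axis) in each of the 6 libraries, large subunit in blue and small subunit in red, with black bars at the medians. The medians lie between 203 and 325 in the E18 libraries and between 52.3 and 91.7 in the adult libraries.

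The summed level shows the same shift in every library. The 48 large subunit genes together had 3734 and 3815 FPKM in the control libraries, 4054 and 4098 in the miR-1247 libraries and 11563 and 11724 in the E18 libraries. The 32 small subunit genes had 2868 and 2887 FPKM, then 3187 and 3248, then 9267 and 9701. The E18 libraries lie far above all adult libraries in both sums, and the miR-1247 libraries lie just above the control libraries. The E18 mean was 3.09 times the control mean for the large and 3.30 times for the small subunit. All members together took 1.81% and 1.98% of the listed FPKM in the control libraries, 1.99% and 1.87% in the miR-1247 libraries and 5.61% and 5.75% in the E18 libraries. Without mitochondrial loci the shares were 2.02% and 2.07%, then 2.28% and 2.32%, then 5.86% and 6.005%. The adult groups overlap in the share of all listed FPKM and not in the share without mitochondrial loci. An exact two-sided permutation test of 2 against 2 libraries cannot go below p = 0.333, so these sums carry no test. Without the 3 genes of highest level in each subunit (Rpl41, Rpl8, Rplp1, Rps15, Rps24 and Rps29), the folds were 3.64 and 3.76.

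**Figure D2:**
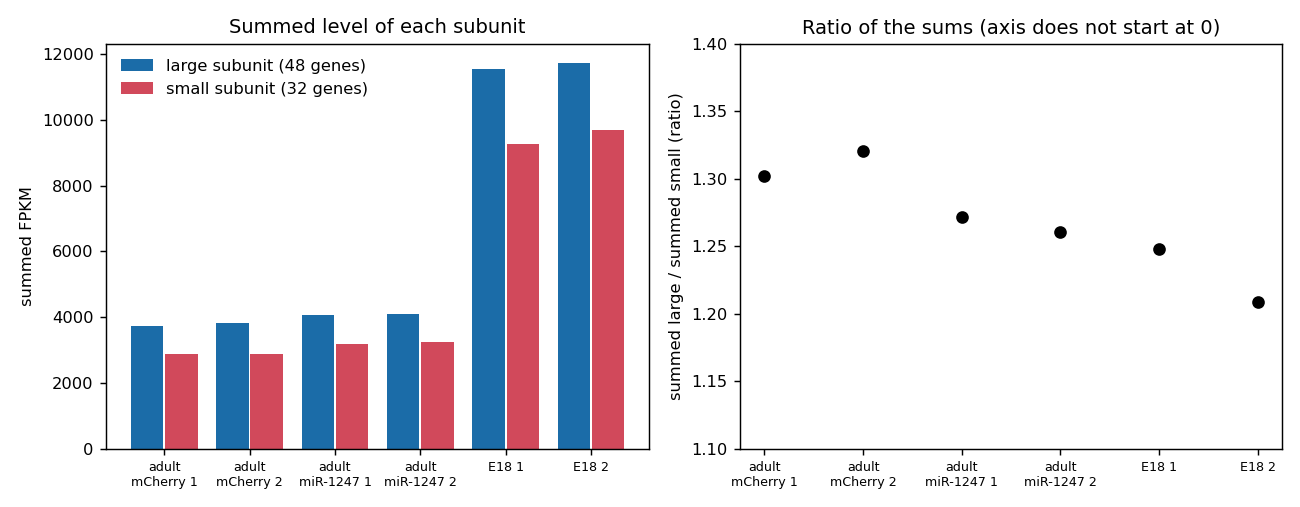
Left: summed FPKM of the large (blue) and small (red) subunit genes in each library, bars from 0. Right: the ratio of both sums per library on an axis that starts at 1.1; it was highest in the control libraries (1.30 and 1.32) and lowest in the E18 libraries (1.25 and 1.21).

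The balance between the subunits moved little. Summed large over summed small subunit FPKM was 1.30 and 1.32 in the control libraries, 1.27 and 1.26 in the miR-1247 libraries and 1.25 and 1.21 in the E18 libraries. The 3 groups do not overlap, and the whole range is small beside the roughly 3-fold change in each sum. The order of the miR-1247 and E18 groups rests on few genes: without the 3 genes of highest level in each subunit the ratio was 1.28 in both. The members per gene averaged 78.6 ± 1.2 FPKM for the large and 89.9 ± 0.43 FPKM for the small subunit in the control, and 243 ± 2.4 and 296 ± 9.6 FPKM in E18 (SD, n = 2).

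Among the large subunit genes, the stalk proteins recruit the elongation factors. Rplp0, which anchors the stalk, had 30.9 and 34.0 FPKM in the control libraries, 44.6 and 38.5 in the miR-1247 libraries and 417 and 423 in the E18 libraries. The E18 libraries are far above the rest, and the log2 fold change against control was 3.66 ± 0.09 (SE, limma adjusted p = 3.35e-07). Rplp2, which forms the stalk dimers with Rplp1, had 54.0 and 57.7, then 51.6 and 52.5, then 228 and 183 FPKM, a log2 fold change of 1.85 in E18. Rplp1 itself was already the most abundant member in the adult, with 500 and 442 FPKM in control, 549 in both miR-1247 and 563 and 635 in E18 libraries. Its increase in E18 was small, 0.35 ± 0.08 (limma adjusted p = 0.006075), and the call was lost without the second E18 library (adjusted p = 0.0503). With libraries scaled by the median ratio over genes, the increase of Rplp1 was 0.19 and was not called (limma adjusted p = 0.0622). The members of the stalk thus stood in different proportions at the mRNA level in the adult and in E18.

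Rpl5 and Rpl11, which bind the 5S ribosomal RNA and, when not assembled, hold back the p53 ligase Mdm2, changed together. Rpl5 had 28.7 and 31.9 FPKM in control, 32.01 and 37.4 in miR-1247 and 137 and 152 in E18 libraries (log2 fold change E18 against control 2.22). Rpl11 had 61.6 and 67.1, then 61.3 and 76.3, then 268 and 257 FPKM (2.01). Both E18 libraries lie above all adult libraries for both genes. The locus of Rpl5 overlaps the entry of Dipk1a, so some of its reads may be shared.

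The 9 large subunit genes of the polypeptide exit tunnel and its rim were all called higher in E18, with log2 fold changes from 0.94 to 3.26 and a median of 1.63. Rpl4, whose loop lines the tunnel, was the least changed of them, with 220 and 211 FPKM in control, 228 and 220 in miR-1247 and 405 and 424 in E18 libraries. Rpl31, at the rim of the tunnel, changed most, from 47.3 and 47.9 FPKM in control and 43.5 and 67.5 in miR-1247 to 437 and 493 in E18 libraries; its locus overlaps the entry of Tbc1d8. The adult and E18 values do not overlap for either gene.

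The largest changes of the whole set belong to large subunit genes with very low adult levels. Rpl34 (locus at chr3:130520479-130524047) had 7.54 and 1.16 FPKM in the control libraries, 3.95 and 4.94 in the miR-1247 libraries and 271 and 268 in the E18 libraries. Its log2 fold change was 5.98 ± 0.56, and the control libraries differed from each other by 6.48-fold. Rpl29 (locus at chr9:106306652-106308767) had 2.57 FPKM in both control libraries, 3.27 and 2.18 in the miR-1247 libraries and 212 and 184 in the E18 libraries, with little spread (5.79 ± 0.17, adjusted p = 5.84e-07, limma). Rpl30 had 3.07 and 8.14 FPKM in control, 8.68 and 3.79 in miR-1247 and 161 and 178 in E18 libraries (4.80 ± 0.44). Every E18 value is far above every adult value for these genes, although the adult values are uneven between libraries. Rpl36, whose locus overlaps the entry of Lonp1, followed with 4.27, ahead of Rplp0.

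In the small subunit, the 14 genes of the head were all called higher in E18 (median log2 fold change 2.14), and of the 17 genes of the body and platform 16 were higher and Rps2 lower (median 1.73). Rps15a, a protein of the body, changed most: 17.1 and 17.3 FPKM in control, 25.6 and 36.2 in miR-1247 and 280 and 302 in E18 libraries, a log2 fold change of 4.01 ± 0.15 (limma adjusted p = 1.83e-06). Rps12, a protein of the head, had 7.94 and 12.9, then 7.79 and 5.73, then 174 in both E18 libraries (3.97). Rps3a1, a protein of the platform, had 38.4 and 28.2, then 37.7 and 44.8, then 390 in both E18 libraries (3.53). Rps13 and Rps27 followed with 3.09 and 3.06. The adult values of these genes lie well below the E18 values in every library. Fragments of Rps27 can also be assigned to the entry of its retrogene Rps27rt. That entry had 176 and 160 FPKM in control, 205 and 195 in miR-1247 and 235 and 207 in E18 libraries. In every adult library it was above Rps27, and its log2 fold change in E18 against control was only 0.39. The rank of Rps27 and the size of its change are thus less certain, in miR-1247 against control too.

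Rps3, which sits at the entry of the mRNA channel, is a member without near-identical copies elsewhere in the genome. It had 70.2 and 76.6 FPKM in control, 94.97 and 87.6 in miR-1247 and 414 and 401 in E18 libraries, a log2 fold change of 2.46. Rps6, the protein that S6 kinase phosphorylates, had 140 and 153, then 136 and 146, then 270 and 281 FPKM, a smaller change of 0.91. Rps24 had the highest E18 level of all members, 552 and 681 FPKM, against 193 and 92.5 in control and 164 and 178 in miR-1247 libraries. The control libraries differ by more than 2-fold for Rps24, and both E18 libraries still lie above them.

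**Figure D3:**
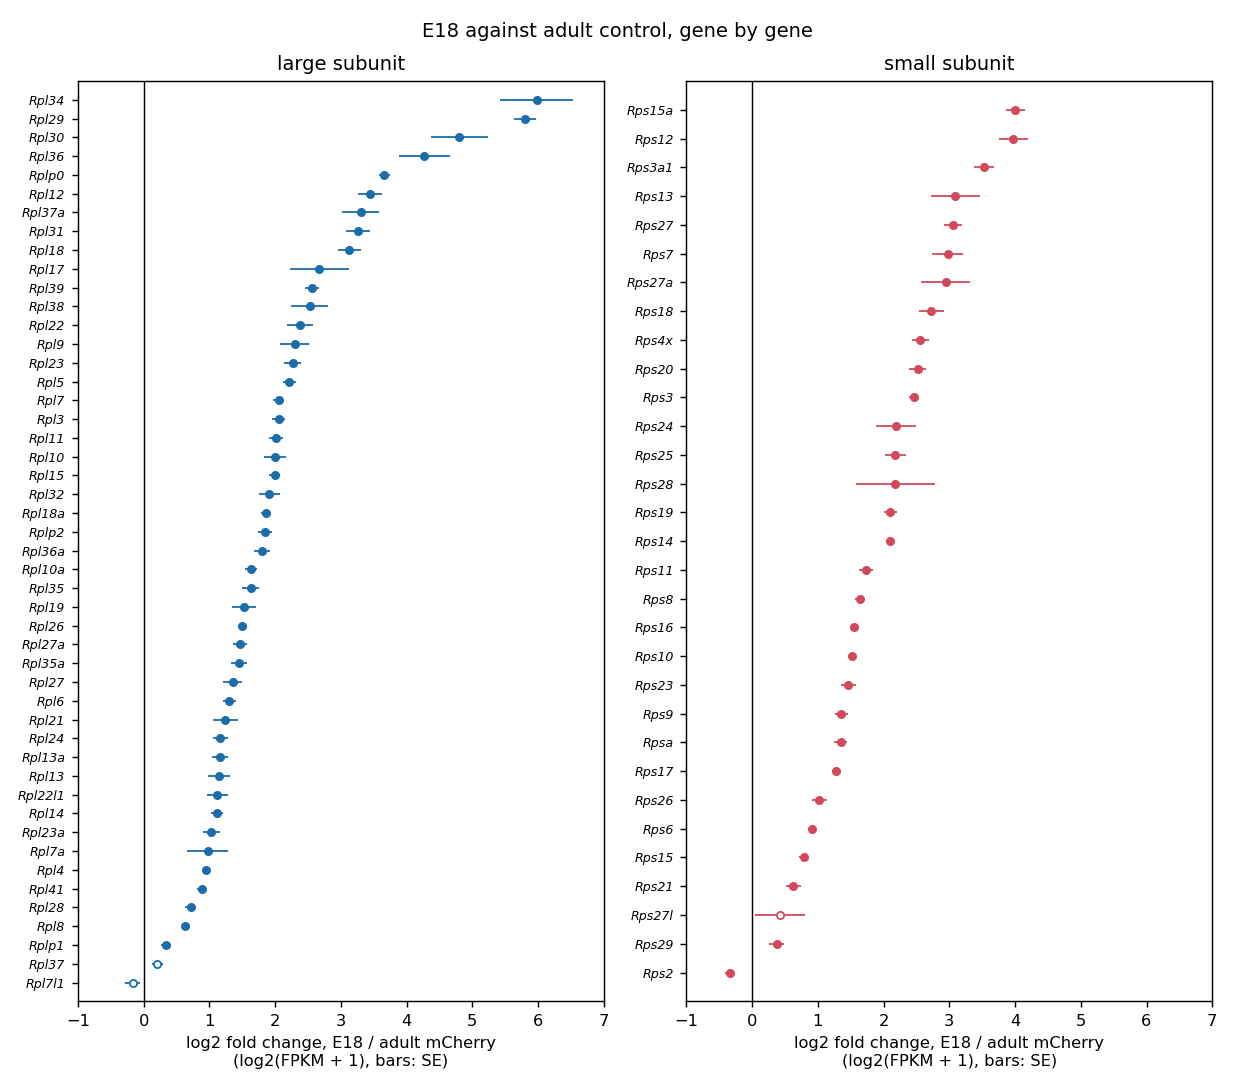
log2 fold change (E18 over adult control) with SE for each gene (1 small subunit gene is not drawn), sorted within the large (left) and small (right) subunit; filled points passed the test, open points did not. The points run from Rps2 at -0.34 to Rpl34 at 5.98.

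A few members did not follow. Rps2 (locus at chr17:24939036-24940903), a protein at the mRNA entry, had 133 and 139 FPKM in the control libraries, 102 and 88.7 in the miR-1247 libraries and 111 and 105 in the E18 libraries. Its E18 values lie below the control values and above the miR-1247 values. The log2 fold change against control was -0.34 ± 0.08 (limma adjusted p = 0.00779), and the call was lost without the second E18 library (adjusted p = 0.0580). Rpl37 had 104 and 117, then 77.8 and 73.0, then 132 and 123 FPKM, a difference of 0.21 from control that missed the threshold (limma adjusted p = 0.0513). Rpl7l1 (-0.16) and Rps27l (0.42) were not called either. The smallest called increases after Rplp1 were those of Rps29 (0.38), Rps21 (0.63), Rpl8 (0.63), Rpl28 (0.71), Rps15 (0.78) and Rpl41 (0.89).

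Rps29, a protein of the head, had 332 and 423 FPKM in control, 440 and 401 in miR-1247 and 471 and 504 in E18 libraries. It is the highest small subunit gene in every adult library, as Rplp1 is the highest large subunit gene there. Its call rests on single libraries, with an adjusted p of 0.0608 without the first control library, 0.0722 without the first E18 library and 0.134 without the second. With all libraries the Rps29 call was also lost under each of the 4 other scalings and with no variance trend (limma adjusted p from 0.0613 to 0.122). Rpl7a and Rps28 had larger but uneven increases. Rpl7a (0.97) lost its call without the second control, the first E18 or the second E18 library (limma adjusted p = 0.0940, 0.136 and 0.115) and under median ratio scaling (0.0516). Rps28 (2.18 ± 0.61), which had 30.4 and 68.3 FPKM in control and 224 and 198 in E18 libraries, lost it without the first control, the first E18 or the second E18 library (limma adjusted p = 0.0958, 0.102 and 0.0844), with log2 fold changes of 1.61, 2.09 and 2.27 there. The other 72 called members kept their call and direction without each of the 6 libraries in turn.

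Members differ much more from each other in the adult than in E18. In the mean of the control libraries the levels ran from 2.57 FPKM (Rpl29) to 471 FPKM (Rplp1), a range of 183-fold, and in E18 from 12.1 FPKM (Rpl7l1) to 617 FPKM (Rps24), a range of 51.0-fold. The SD of log2 FPKM across the 80 genes was 1.54 and 1.58 in the control libraries, 1.55 and 1.61 in the miR-1247 libraries and 1.08 and 1.11 in the E18 libraries. All adult values lie above both E18 values. Without the paralogs Rpl7l1, Rpl22l1 and Rps27l it was 1.48 over the control means, 1.46 over the miR-1247 means and 0.88 over the E18 means. Libraries of a group differed by a median of 1.13-fold per gene in the control, 1.17-fold in miR-1247 and 1.08-fold in E18, far less than the range among members. In the control, 8 members differed by more than 2-fold between the libraries: Rpl17, Rpl30, Rpl34, Rpl36, Rpl7a, Rps13, Rps24 and Rps28. Across the 80 genes the order of levels was nearly shared by the adult groups (Spearman's rho of group means 0.97) and less so by control and E18 (0.61). These are descriptions across genes, which are not independent replicates.

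In E18 the most abundant large subunit genes were Rplp1 and Rpl7, and the least abundant besides Rpl7l1 were Rpl21 and Rpl7a. Rpl21 had 8.76 and 6.52 FPKM in control, 13.8 and 13.4 in miR-1247 and 16.4 and 22.7 in E18 libraries. It also has the most near-identical intronless copies in the genome, 55, and fragments that match several copies can be lost or divided. Such copies, counted at 95% identity over 90% of the coding sequence, number from 0 to 55 per member. The 29 members with 0 to 3 copies had 26 calls higher and 0 lower in E18 against control with a median log2 fold change of 1.51. The 34 members with 4 to 9 copies had 34 higher and a median of 2.14, and the 17 members with 10 or more had 16 higher, 1 lower and a median of 1.47. Rps2 has 25 copies and Rpl29 has 28, so their levels are less certain than those of Rps3 or Rpl8, which have 0. Of the 80 loci, 11 overlap another entry and 2 carry another gene name as well (Rpl24 with Zbtb11, Rps10 with Nudt3). The 68 genes free of both had 64 calls higher and 1 lower.

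The second comparison sets E18 against the adult miR-1247 RGCs. It gave 75 members higher and 0 lower, while of all genes tested 41.5% were called higher and 28.4% lower. At an unadjusted p under 0.05, 76 members differed. The median log2 fold change of the members was 1.84, against 0.19 over all genes tested. The members not called were Rpl21 (0.48), Rpl7l1 (-0.27), Rplp1 (0.12), Rps2 (0.18) and Rps29 (0.21). The extremes were Rpl29 (5.75) and Rpl34 (5.64) in the large subunit and Rps12 (4.51) and Rps3a1 (3.22) in the small subunit. Rpl37 and Rps27l, which did not pass against control, were called higher against miR-1247, with log2 fold changes of 0.75 and 2.45 (limma adjusted p = 0.000192 and 0.00122). This comparison shares its E18 libraries with the first, so the lists of called genes are not independent. The calls of Rpl22l1, Rpl7a and Rps28 were each lost without at least 1 library. For Rpl22l1 the adjusted p was 0.0804 and 0.140 without the first and second miR-1247 library and 0.147 and 0.117 without the first and second E18 library. For Rpl7a it was 0.0609 without the second miR-1247 library and 0.0675 and 0.0575 without the first and second E18 library, and for Rps28 0.0510 without the first E18 library.

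The third comparison asks what the miR-1247-5p mimic changed in adult RGCs. Here 10 members were called higher and 4 lower, while of all genes tested 3.53% were called higher and 6.22% lower. The log2 fold changes of the higher members were from 0.31 to 0.79, and they include Rps3, Rpl26, Rps15, Rpl39, Rps14, Rps20, Rpl22l1, Rps27 and Rps15a. The lower members were Rpl37, Rps2, Rpl36a and Rps27l. Of these 14, 5 belong to the large and 9 to the small subunit. The median log2 fold change of the 80 members was 0.16 (large subunit 0.14, small subunit 0.16), against -0.03 over all genes tested, and 58 members were above 0. Both miR-1247 libraries lay above both control libraries for 30 members and below them for 10, against 25.3% and 32.4% of all genes tested.

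These calls are less firm than those of the first comparison. The scaling of the libraries moves the count both ways, against 10 higher and 4 lower. Equal totals of listed FPKM gave 3 and 4, with 7 of the 14 calls kept. Median ratio scaling gave 14 and 4 and equal totals without mitochondrial loci 15 and 4, with all 14 kept in each. Every called member lost its call without at least 1 library. The counts higher and lower were 6 and 2 without the first control library, 2 and 0 without the second, 2 and 2 without the first miR-1247 library, 1 and 0 without the second, and 0 and 0 without either E18 library. In both of the last fits 27 members had an unadjusted p under 0.05 in limma, against 29 with all libraries. The markers of RGCs moved in the same comparison: 14 of 14 were called lower in miR-1247, with a median log2 fold change of -0.85.

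Of the higher members, Rps14, a protein of the platform, had the smallest adjusted p. It had 85.0 and 87.7 FPKM in control, 117 and 133 in miR-1247 and 380 and 368 in E18 libraries, with a log2 fold change of 0.53 ± 0.07 in miR-1247 against control (limma adjusted p = 0.0115). Rps15a had the largest increase, 0.79 ± 0.15 (limma adjusted p = 0.0282), from 17.1 and 17.3 to 25.6 and 36.2 FPKM. For both genes the groups do not overlap, and the miR-1247 values lie much closer to the control than to the E18 values.

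Proteins of the head among the higher members include Rps3, Rps15 and Rps20. Rps15 had 250 and 221 FPKM in control and 315 and 291 in miR-1247 libraries (log2 fold change 0.36), and Rps20 had 19.6 and 15.7 against 24.5 and 29.3 FPKM (0.59). The miR-1247 libraries were above the control libraries for both of these genes. In the large subunit, Rpl26 and Rpl39 lie at the exit tunnel. Rpl26 had 177 and 156 FPKM in control and 211 and 215 in miR-1247 libraries (0.35), and Rpl39 had 35.9 and 37.1 against 56.9 and 46.7 FPKM (0.49). The groups do not overlap for either gene.

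Of the lower members, Rpl37 had 104 and 117 FPKM in control and 77.8 and 73.0 in miR-1247 libraries, a log2 fold change of -0.54 ± 0.08 (limma adjusted p = 0.0151). Rps2, with the values given above, had -0.51 ± 0.08 (limma adjusted p = 0.0174). Rpl36a had 38.4 and 48.2 against 28.1 and 27.5 FPKM (-0.61). Every control value lies above every miR-1247 value for these genes. Rps2 was called lower than control in both miR-1247 and E18 RGCs, and these comparisons share their control libraries.

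**Figure D4:**
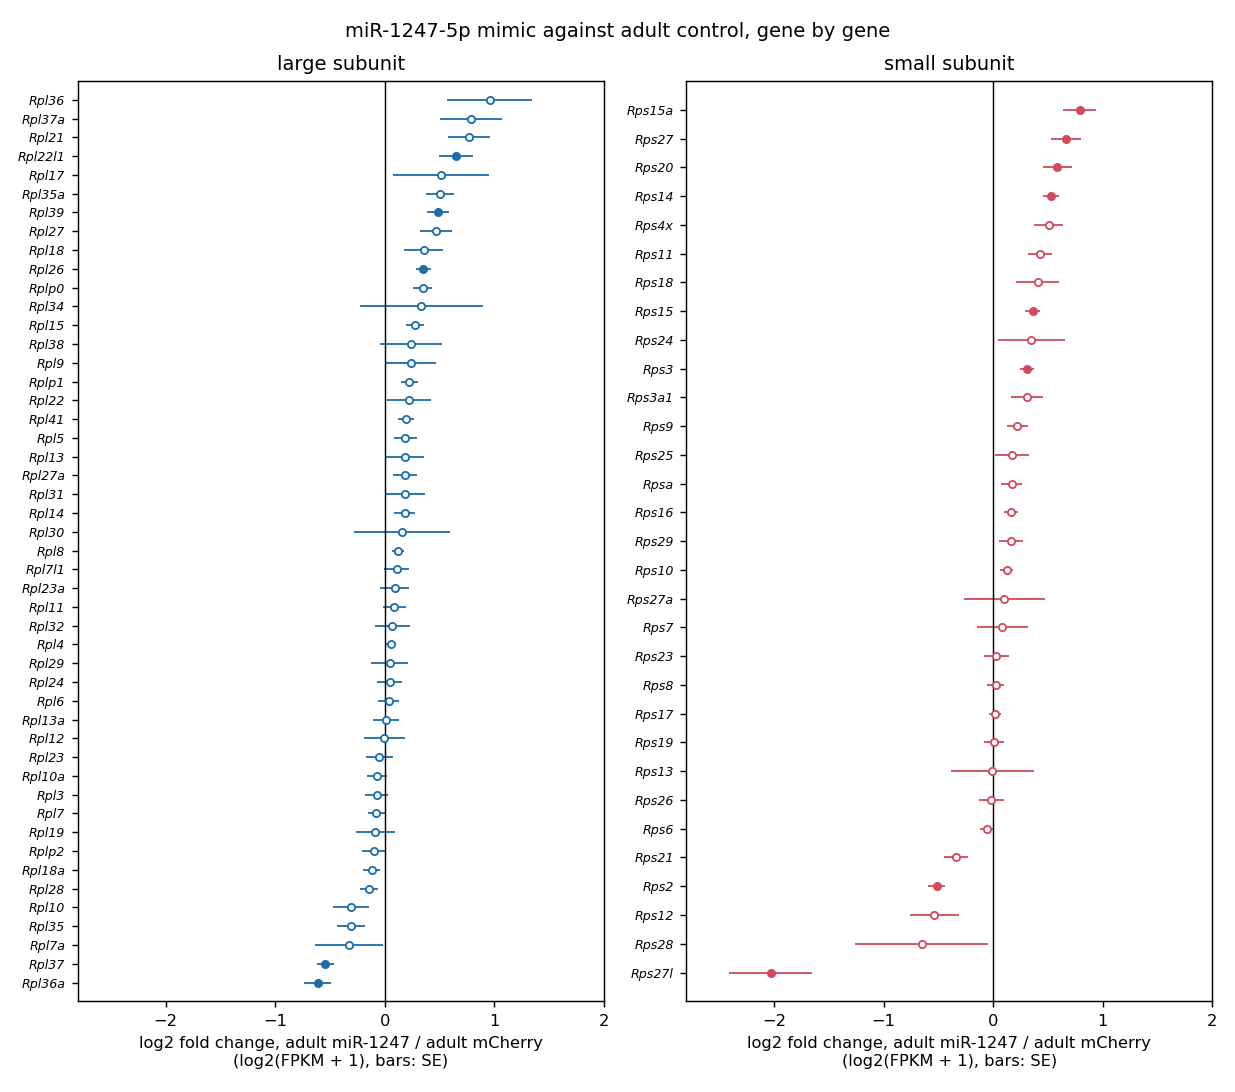
log2 fold change (adult miR-1247 over adult control) with SE for each gene (1 small subunit gene is not drawn), sorted within the large (left) and small (right) subunit; filled points passed the test. Most genes lie within 1 of 0, and Rps27l stands apart at -2.03.

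Among paralogs, 4 pairs have entries for both genes. Rpl22l1 is a close relative of Rpl22, a large subunit protein that T cell development needs. Rpl22 had 28.7 and 28.8 FPKM in control, 42.7 and 26.4 in miR-1247 and 163 and 146 in E18 libraries. Rpl22l1 had 31.4 and 45.2, then 62.2 and 57.7, then 84.7 and 81.8 FPKM. Rpl22l1 was thus at 110% and 157% of Rpl22 in the control libraries, 146% and 219% in the miR-1247 libraries and 52.1% and 56.2% in the E18 libraries. The adult and E18 shares do not overlap, and those of the adult groups do. Both genes were called higher in E18 than in control (2.38 for Rpl22 and 1.12 for Rpl22l1). In miR-1247 against control only Rpl22l1 was called (0.65, limma adjusted p = 0.0489, against 0.520 for Rpl22). This call of Rpl22l1 was lost with a pseudocount of 0.1 (limma adjusted p = 0.0578) and with no filter on low values (0.0528). The difference between both genes was not tested.

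Rps27l, a paralog of Rps27 known as a target of p53, gave the largest decrease in the miR-1247 comparison. It had 8.15 and 15.3 FPKM in control, 2.76 and 1.38 in miR-1247 and 20.4 and 11.6 in E18 libraries. The miR-1247 values lie below all others, while the control and E18 values overlap. Its log2 fold change in miR-1247 against control was -2.03 ± 0.38 (limma adjusted p = 0.0279), at a low level. Rps27 moved the other way, from 38.1 and 50.9 FPKM in control to 69.1 and 71.9 in miR-1247 and 350 and 400 in E18 libraries. Rps27l was at 21.4% and 30.1% of Rps27 in the control, 3.99% and 1.91% in the miR-1247 and 5.81% and 2.89% in the E18 libraries. The control shares lie above all others, and the miR-1247 and E18 shares overlap. With the entry of Rps27rt, a retrogene of Rps27, added to Rps27, Rps27l was at 3.80% and 7.27% in the control, 1.007% and 0.516% in the miR-1247 and 3.48% and 1.90% in the E18 libraries. The miR-1247 shares then lie below the E18 shares, and the control shares still lie above all others. Without each of the 6 libraries in turn the call of Rps27l in miR-1247 was lost (limma adjusted p from 0.0564 to 0.130).

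Rpl36al and Rpl36a code for nearly the same protein. The entry of Rpl36al carries the gene name Dnaaf2 as well, so its level and its shares may not be those of Rpl36al alone. Rpl36al had 79.4 and 82.2 FPKM in control, 84.1 and 95.01 in miR-1247 and 74.1 and 88.5 in E18 libraries, with no call in any comparison. Rpl36a had 38.4 and 48.2, then 28.1 and 27.5, then 141 and 166 FPKM. Rpl36al was therefore at 207% and 170% of Rpl36a in the control, 299% and 345% in the miR-1247 and 52.7% and 53.5% in the E18 libraries, and the 3 groups do not overlap. Rpl7l1 had 11.3 to 15.2 FPKM in all 6 libraries, with no call. It was at 9.55% and 9.93% of Rpl7 in the control, 9.94% and 12.4% in the miR-1247 and 2.18% and 1.95% in the E18 libraries. The paralogs Rpl3l, Rpl10l, Rpl39l and Rps4l had no entry under these names.

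**Figure D5:**
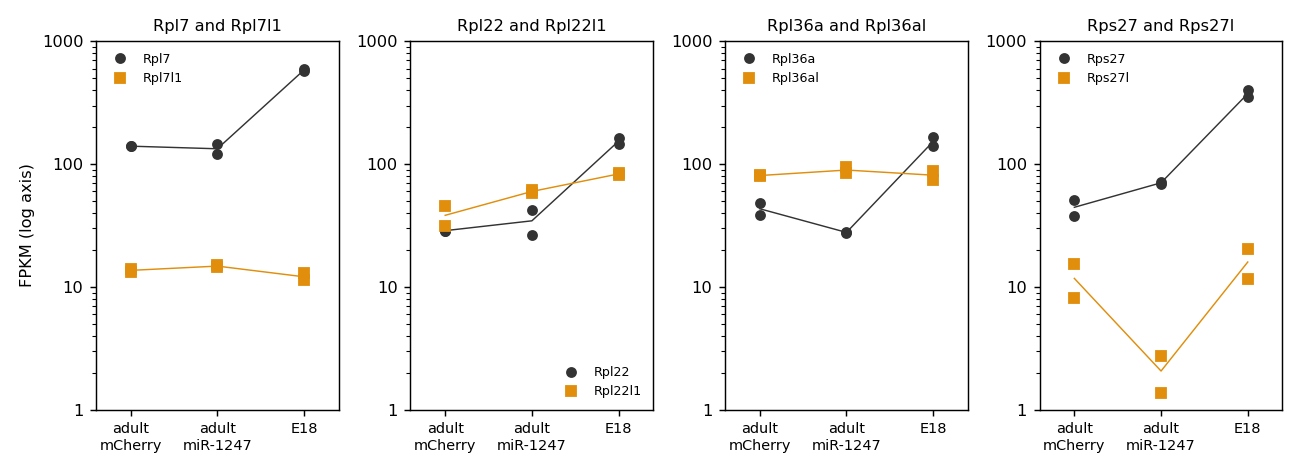
FPKM (log axis) of both genes of each paralog pair, points for libraries and lines through group means. Rpl22 and Rpl36a lie below their paralogs in the adult means and above them in E18, while Rpl7l1 and Rps27l lie below Rpl7 and Rps27 in every group.

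Ribosomal proteins outside the name rule were also measured. Fau encodes a ribosomal protein fused to a ubiquitin-like protein, and Rack1 encodes a scaffold on the small subunit. In E18 against control they had log2 fold changes of 1.90 and 2.20, each called. In miR-1247 against control Fau (88.1 and 91.6 against 131 and 135 FPKM) was called higher, with a log2 fold change of 0.56 (limma adjusted p = 0.00339). Its miR-1247 values lie above its control values in every library.

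Genes that make and control ribosomes were also measured. Of 38 ribosome assembly factors with a test, 19 were called higher and 4 lower in E18 against control, against 40.2% and 29.8% of all genes tested, and their median log2 fold change was 0.51. The largest were Npm1 (1.72), a nucleolar chaperone, Gnl3 (1.69), a nucleolar GTPase, and Nop56 (1.57), a part of the box C/D particles that methylate ribosomal RNA. Downwards, Rrs1 (-1.19) and Sbds (-1.04) changed most of the 4. In miR-1247 against control 2 were called lower, Nol6 (-0.58) and Tsr1 (-0.67), both small subunit assembly factors. Of 12 genes of RNA polymerase I and its factors, which transcribe ribosomal RNA, 8 were higher and 1 lower in E18, led by Taf1d (2.42), Polr1e (1.68) and, downwards, Taf1a (-1.22). In miR-1247 against control limma called 0 of the 12, and 2 had an unadjusted p under 0.05.

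Other mRNAs listed for a TOP start, whose starts were not examined here, were mostly higher in E18 as well. Of 16 such genes, which code for elongation factors, initiation factors and other proteins, 15 were called higher and 0 lower in E18 against control, while of all genes tested 40.2% were called higher and 29.8% lower. Their median log2 fold change was 1.004, against 0.16 over all genes tested. The largest were Tpt1 (3.25), a growth-related protein, Eef1b2 (2.67), the exchange factor of elongation factor 1, and Eif3e (2.23), an initiation factor subunit. Eef1a1, elongation factor 1 itself, had 724 and 695 FPKM in control, 775 and 770 in miR-1247 and 2588 and 2602 in E18 libraries. In miR-1247 against control 1 of the 16 was called, Nap1l1 (0.26). Among the members, 8 had an opening cytosine and at least 4 further pyrimidines at the annotated start. In E18 against control 6 of these 8 were called higher and 1 lower, with a median log2 fold change of 1.64. The 72 members with other starts had 70 higher and 0 lower calls and a median of 1.87.

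Of 18 genes of the mTORC1 pathway, 9 were called higher and 4 lower in E18 against control. These counts are near the shares of all genes tested (40.2% and 29.8%), and their median log2 fold change of 0.19 is near that of all genes (0.16). Rps6kb2, an S6 kinase, had 2.55, Eif4e, the cap-binding protein, 1.93 and Tsc2, an inhibitor of the pathway, 1.75. Of the 4 called lower, Akt1s1 (-1.24) and Rptor (-1.13) changed most, and Mtor (-0.03) was not called. In the Myc family, whose members drive transcription of ribosomal genes, Mycl (3.30), Myc (2.71) and Mycn (1.24) were called higher in E18 and their partner Max lower (-0.37). Mycl was also called higher in miR-1247 against control (0.96, limma adjusted p = 0.0264), from 0.972 and 1.30 to 2.78 and 3.53 FPKM, against 21.0 and 19.1 FPKM in E18.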

How the data were processed

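Poly-A RNA was measured in 6 libraries, 2 in each of 3 groups taken from the labels. The authors mapped reads to mm39 with HISAT2 and computed FPKM with Cufflinks and Cuffdiff (per the submitters' notes on processing, without versions). The deposited table lists FPKM in 11104 rows for 10889 loci, with 1e-05 added to every value, which was taken off again. The authors also deposited log2 ratios of group means, used only as a check: the largest gap to the recomputed ratios was 0.00206. Read counts were not used here, and depth is unknown.

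Loci of the same name were summed, and names with the same loci were taken once, which left 10162 genes, of which 9987 had a mean of at least 1 FPKM and were tested. limma 3.58.1 (R 4.3.3) fitted the mean of each group to log2(FPKM + 1) over all 6 libraries together, shrinking variances towards their trend with level. P-values are two-sided and were adjusted over all genes tested. Fold changes on this scale understate changes of weakly expressed genes. On simulated data with this design, limma called 69 of 100 genes changed by 1 and 91 of 100 changed by 2 on the log2 scale. No other genes were changed there, and the changed ones were not weakly expressed. In E18 against control 70.1% of all genes tested were called, so the simulated shares need not hold for these data. Starts and copies came from GRCm39 with GENCODE release M39 (1 CCDS transcript per gene) and BLAST+ 2.17.0. Tables and figures were made with Python 3.11.15, pandas 2.3.3, NumPy 2.4.6 and Matplotlib 3.10.9.

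Members, gene lists and marker lists were chosen with earlier results of these data known. Named genes are the 5 highest and 5 lowest changes and the 5 highest levels of each subunit, members called against the majority or called in miR-1247 against control, paralog pairs, stalk and 5S genes, and the 3 largest called changes of each other list. The alternatives were another pseudocount (0.1), filters and scalings, each locus on its own, a fit without the variance trend or with 2 groups only, a replicate block and leaving out each library. Same-numbered libraries did not deviate together (correlations of deviations from -0.01 to 0.00), so the main fit has no block. Values of a few single genes are not reported here, though counts and sums include them.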

Additional observations from a re-analysis of the deposited data

How the results depend on the processing

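The E18 counts were stable. Against control 72 to 76 members were called higher and 0 to 2 lower over 17 alternatives, with 2 lower under median ratio scaling and 0 to 1 when each library was left out. Against miR-1247, 73 to 77 were higher, with 1 lower under median ratio scaling and under equal totals without mitochondrial loci. The miR-1247 calls depend on the processing, and the cause was not tested. Against 10 higher and 4 lower, median ratio scaling gave 14 higher, equal totals without mitochondrial loci 15 and a mean of at least 5 FPKM 13, each with 4 lower, while equal totals gave 3 higher, also when computed over other genes, no variance trend 0 higher and 0 lower (22 members at an unadjusted p under 0.05), and a fit of only the 2 groups compared 1 and 1. Leaving out each library gave 0 to 6 higher and 0 to 2 lower. With the replicate number as a block, 6 members were higher and 4 lower, and the numbers do not pair the libraries. Over all genes tested, 36.2% of the calls in this comparison were upward, 46.6% under median ratio scaling and 15.1% under equal totals.

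The summed levels kept their order. For large and small subunit, E18 over control was 2.77 and 2.96 under median ratio scaling, 2.92 and 3.12 under equal totals and 3.64 and 3.76 without the 3 highest members of each subunit. MiR-1247 over control was 1.11 and 1.147, 1.01 and 1.04, and 1.06 and 1.095 in the same order. E18 over miR-1247 was 2.499 and 2.58 under median ratio scaling, 2.90 for the large subunit under equal totals, and 3.44 and 3.43 without the highest members. The ratio of the subunits without the highest members was 1.28 in miR-1247 and 1.28 in E18, and without Rpl24 and Rps10 it was 1.33 in control and 1.29 in miR-1247. With the Rps27rt entry added to Rps27, a step chosen after seeing the data, Rps27l was at 5.53% in control and 0.761% in miR-1247 and 2.69% in E18.

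The other pathway lists, tried after seeing the data, held 38, 12, 16, 18 and 4 tested genes. A further 4 were ribosomal genes outside the name rule. Of all these, 4 were higher and 3 lower in miR-1247 against control, against 3.53% and 6.22% of all genes tested. This became 2 and 1 with no variance trend, 1 and 1 with only 2 groups, and 1 to 3 higher and 0 to 1 lower without each library. Against miR-1247, 16 and not 9 were lower in E18 under median ratio scaling and under equal totals without mitochondrial loci. Over all genes tested, the lower calls went from 2833 to 3425 and 3358 under these scalings. Depth is unknown, 2 libraries per group limit the precision, and members with many copies carry an uncertain level.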

Other observations

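Entries for copies of ribosomal protein genes, chosen after their values were seen, changed less than their parent genes in E18 or the other way. Rps27rt, a retrogene of Rps27, had 176 and 160 FPKM in control, 205 and 195 in miR-1247 and 235 and 207 in E18 libraries. It was above Rps27 in every adult library and below it in both E18 libraries. Its log2 fold change in E18 against control was 0.39 (limma adjusted p = 0.00353), in the same direction as that of Rps27 (3.06). Rpl9-ps6, listed as a pseudogene of Rpl9, had 40.4 and 41.5 FPKM in control, 54.9 and 49.9 in miR-1247 and 10.51 and 13.3 in E18 libraries, a log2 fold change of -1.71 in E18 against control (limma adjusted p = 2.92e-05), while Rpl9 had 2.30. Fragments of a copy and its parent can be assigned to either, and how they were divided was not tested.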
